A study of Mus musculus with 6 samples.

Results

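Bone morphogenetic protein (BMP) signalling was followed through 10 genes in cultured mouse stromal cells exposed to terahertz radiation. They were the ligand gene Bmp4, the receptor gene Bmpr1a, the antagonist gene Grem1, the signal transducer genes Smad1, Smad5 and Smad9, and the target genes Id1, Id2, Id3 and Id4. Every probe set whose annotated symbol is exactly one of these names was taken, which gave 23 probe sets, out of 34945 that carry a single symbol and stand for 18193 genes. The genes were chosen by their place in the pathway and with the irradiated minus control differences of these same arrays already known. Their differences are therefore a description, and no test is given for them.

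The cells were commercial mouse mesenchymal stem cells, and the sources used here name no strain, sex or age. Both groups grew in medium with 5% serum to which rosiglitazone (1 µM), insulin (5 µg/ml), IBMX (100 µM) and dexamethasone (1 µM) had been added again 48 h before the start, a mixture that drives fat cell formation. The irradiated group received pulsed broadband terahertz radiation centred near 10 THz for 12 h, as 35 fs pulses repeated at 1 kHz, and the mean power per area was 1 mW/cm2. The control group received none and stood next to it, and both were kept at 26 to 27 °C, below the usual temperature of mammalian culture. There were 3 independent experiments, each with 1 irradiated and 1 control culture, hence 6 arrays. The cultures of an experiment were synchronised to the same stage of differentiation before it began, per the series' design text.

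BMPs are secreted ligands that bring together type I receptors such as BMPR1A and type II receptors such as BMPR2. The active receptor phosphorylates SMAD1, SMAD5 and SMAD9, which join SMAD4, enter the nucleus and switch on genes, among them the Id genes. ID proteins lack a DNA-binding region and hold E-proteins and other basic helix-loop-helix factors away from DNA. Gremlin 1 binds BMP2 and BMP4 outside the cell and keeps them from the receptor. In mesenchymal progenitors the pathway is known for its part in the choice between bone, cartilage and fat fates, and BMP4 in particular for commitment to the fat lineage.

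The promoters of Id2, Id3, Id4 and Smad1 are shown because Id genes are textbook direct targets of BMP Smads and because Smad1, Id3 and Id4 were higher together on these arrays. RefSeq promoter sequences (build GRCm38.p6) matched 9 of the 10 genes, all but Id1, with 11 start sites in all. The 250 bases before each start site were searched on both strands for GGCGCC, a GC-rich element bound by BMP Smads that reads the same on both strands, and for the Smad-binding element CAGAC. No matches overlapped in these windows. Capitals mark the matches, and each sequence runs 5′ to 3′ along its gene and ends at the base before the start site.
Id2, chr12:25096093-25096342, minus strand: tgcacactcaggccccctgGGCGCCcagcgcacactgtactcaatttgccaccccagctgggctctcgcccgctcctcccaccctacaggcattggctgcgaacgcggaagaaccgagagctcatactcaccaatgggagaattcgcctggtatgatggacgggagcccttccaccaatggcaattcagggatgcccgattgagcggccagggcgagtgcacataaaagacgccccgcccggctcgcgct
Id3, chr4:136143572-136143821, plus strand: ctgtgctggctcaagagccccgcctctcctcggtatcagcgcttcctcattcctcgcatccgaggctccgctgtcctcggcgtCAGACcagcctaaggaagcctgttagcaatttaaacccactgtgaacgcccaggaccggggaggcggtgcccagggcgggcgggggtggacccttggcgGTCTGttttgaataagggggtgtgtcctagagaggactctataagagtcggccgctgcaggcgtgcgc
Id4, chr13:48260866-48261115, plus strand: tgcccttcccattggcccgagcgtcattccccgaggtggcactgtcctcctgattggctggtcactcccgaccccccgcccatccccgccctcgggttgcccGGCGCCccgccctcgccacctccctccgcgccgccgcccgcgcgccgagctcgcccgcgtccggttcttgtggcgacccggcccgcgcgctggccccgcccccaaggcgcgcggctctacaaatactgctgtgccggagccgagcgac
Smad1, chr8:79399429-79399678, minus strand: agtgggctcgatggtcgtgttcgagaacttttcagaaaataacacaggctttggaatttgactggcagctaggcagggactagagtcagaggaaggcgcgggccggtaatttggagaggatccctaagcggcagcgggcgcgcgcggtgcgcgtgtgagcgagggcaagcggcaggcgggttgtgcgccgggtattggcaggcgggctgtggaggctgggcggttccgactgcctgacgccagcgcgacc

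Id2 and Id4 each held 1 GGCGCC, starting 231 and 148 bases before the start site, and no CAGAC. Id3 held no GGCGCC but 2 copies of CAGAC, the second of them on the opposite strand and so printed as GTCTG, starting 167 and 68 bases before the start. The Smad1 window held neither. Among the other genes, GGCGCC was found in Grem1, Smad9, Bmpr1a and 1 of the 3 Smad5 promoters, and CAGAC in Grem1 and another Smad5 promoter. Neither was found in Bmp4. Of all 32851 RefSeq promoters of this length 9.59% held GGCGCC and 42.2% held CAGAC. GC content bears on this, since the 11 windows had between 60% and 78.8% G and C against a median of 52.4% over all promoters. Among the 9178 promoters with at least 60% G and C, 26.1% held GGCGCC and 38.6% held CAGAC. The matches describe these windows, and no binding was measured.

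Levels are on the log2 scale of the deposited table, where a difference of 1 is a doubling. A probe set was called expressed where its mean reached 6 in at least 1 group, which held for 18 of the 23 and for 9 of the 10 genes, Smad9 being the exception. Where 1 probe set stands for a gene, it is the brightest by mean. No probe set among 45037 passed limma with the experiment as block at an adjusted p under 0.05 (0% called, smallest adjusted p = 0.188). Without adjustment 3631 had p under 0.05. Array medians were 4.74 to 4.80, and the 14 spiked hybridisation controls were brighter on the irradiated than on the control array of experiment 3, by 0.561 against 0.0807 and -0.0643 in experiments 1 and 2. Their part in the values of experiment 3 was not tested.

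The culture's label was checked against cell type markers. Of 9 measured stromal markers 8 were expressed, among them Pdgfra, Cd44, Col1a2 and Vim, while Thy1 was dim, with 4.11 in controls and 4.07 in irradiated cultures. All 6 measured fat cell markers were expressed, Fabp4, Lpl and Adipoq among them. All 10 macrophage markers were expressed too, Ptprc, Csf1r, Adgre1 and Tyrobp included, so the RNA did not come from stromal cells alone. None of the 6 endothelial markers reached the expressed level. In RNA from whole cultures, fewer cells of a type and less RNA per cell cannot be told apart.

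The summed level of the 10 macrophage markers, on the log2 scale, was 15.55, 15.85 and 16.03 in the control cultures of experiments 1, 2 and 3 and 15.38, 15.82 and 15.86 in the irradiated ones. It was thus lower after irradiation in every experiment, with 9, 4 and 10 of the 10 markers lower in experiments 1, 2 and 3. Their median differences were -0.22, 0.08 and -0.11. The sum is taken over linear levels, so the brightest markers weigh most in it. Cd14 had the largest single drop in experiments 1 and 3, with differences of -0.84, -0.17 and -1.18 in experiments 1, 2 and 3. The fat cell sum was 15.37, 15.55 and 15.50 in controls and 15.51, 15.53 and 15.42 in irradiated cultures. The stromal sum was 14.74, 14.50 and 14.42 in controls and 14.78, 14.54 and 14.51 in irradiated cultures. The part of cell composition in the BMP pathway values below was not tested.

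**Figure D1:**
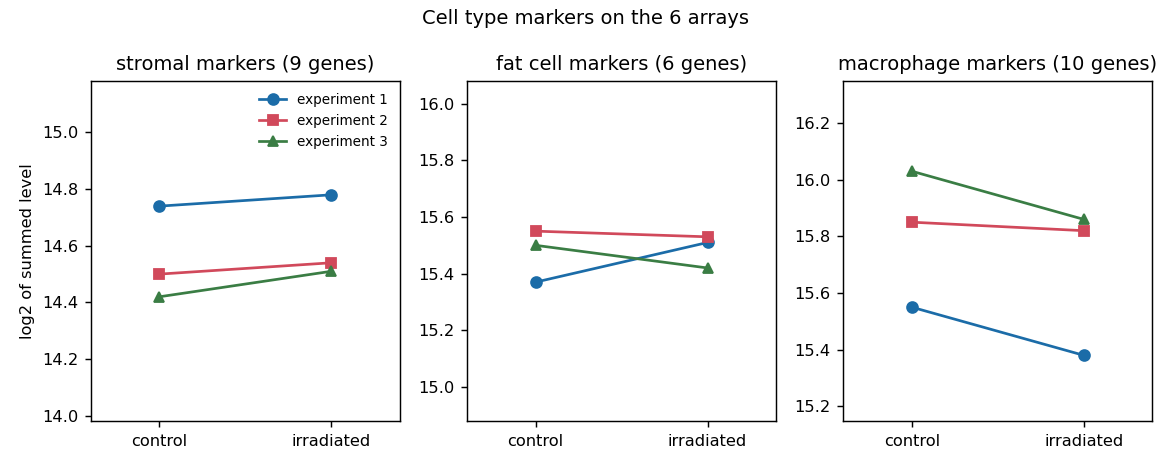
Summed level of stromal, fat cell and macrophage markers (log2 of the sum of linear levels, y axis, same span in each panel) in control and irradiated cultures, with a line per experiment. The macrophage sum is lower in the irradiated than in the control culture of each experiment and is lowest in experiment 1, at 15.55 and 15.38, where the stromal sum is highest.

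Of the extracellular genes, the ligand gene Bmp4 was higher in irradiated cultures and Grem1, its antagonist, was lower. The Bmp4 probe set read 9.01, 8.29 and 7.43 in the controls of experiments 1, 2 and 3 and 9.55, 8.33 and 8.68 in the irradiated cultures. The irradiated culture was the higher one in each experiment, but the groups overlapped and the controls alone spanned 1.58, more than any of the differences. Those differences were 0.54, 0.04 and 1.25, a mean of 0.61 ± 0.61 (SD, n = 3) or 1.53-fold. Experiment 3 made most of it, and without that experiment the mean was 0.29.

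Grem1 read 9.06, 8.70 and 8.16 in controls and 8.80, 8.52 and 7.95 in irradiated cultures. Each irradiated culture lay below its own control by a similar amount, while the groups overlapped because the experiments themselves differed by up to 0.90 among controls. The differences were -0.26, -0.18 and -0.21, with a mean of -0.22 ± 0.04 (SD, n = 3), or 1.16-fold lower. The size was small, and its spread between experiments was among the narrowest of the 10 genes. That spread and the same direction in each experiment rest on the pairing by experiment. In deviations from the group mean over expressed probe sets, the irradiated culture of experiment 2 correlated best with the control of experiment 3. Its Grem1 level of 8.52 was above the 8.16 of that control.

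The receptor gene Bmpr1a was read by 6 probe sets, and they did not run the same way. The brightest, 1425492_at, read 9.33, 9.15 and 9.22 in controls and 9.58, 9.31 and 9.39 in irradiated cultures, a mean difference of 0.19 ± 0.05 (SD, n = 3). It was higher in every experiment. Of the 3 other expressed probe sets, 1425493_at read 8.24, 8.16 and 7.99 in controls and 8.21, 7.77 and 7.55 in irradiated cultures, a mean difference of -0.29 ± 0.22 (SD, n = 3). The remaining ones, 1425491_at and 1425494_s_at, differed by -0.18 ± 0.17 (SD, n = 3) and -0.10 ± 0.21 (SD, n = 3). These 3 were lowest against control in experiment 3 and near 0 in experiment 1. Both dim probe sets had means under 4.6, and 1 of them, 1451729_at, was lower in every experiment, by 0.35, 0.34 and 0.28. No direction for the gene as a whole can be given, since the median over its 6 probe sets was -0.14.

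**Figure D2:**
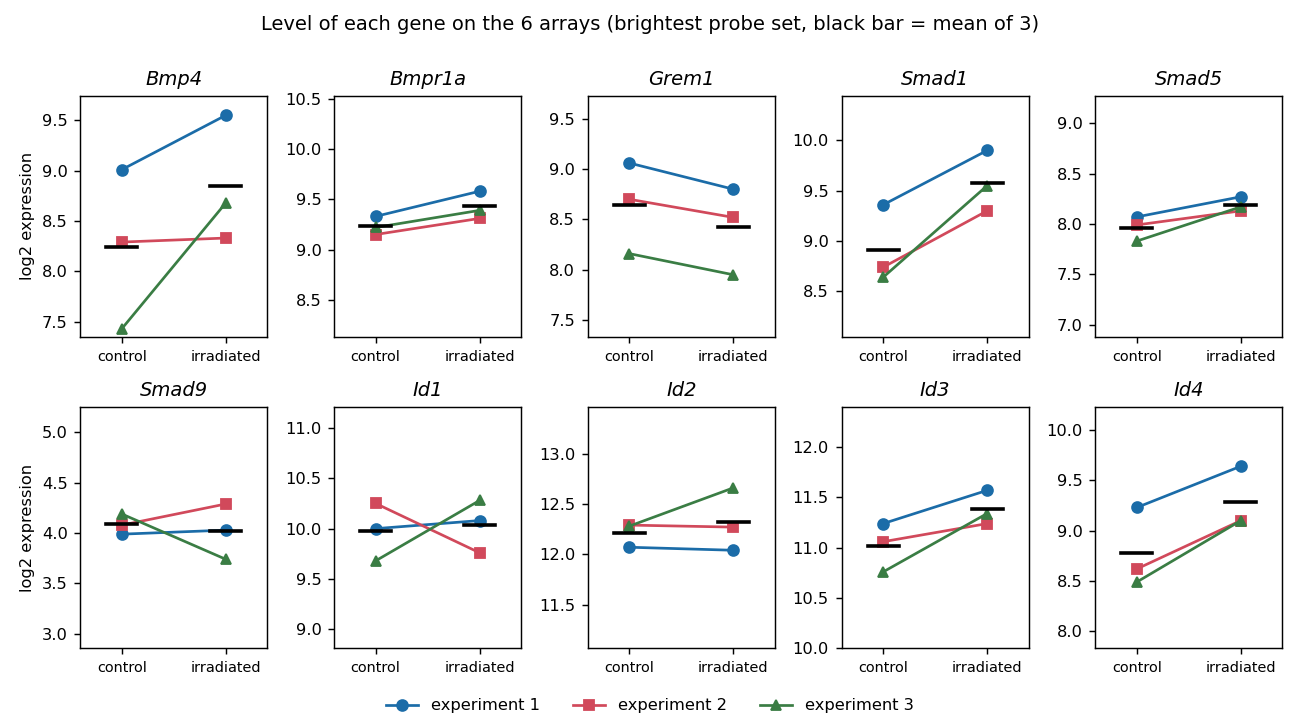
Log2 expression (y axis, each panel spans the same range) of the 10 genes in control and irradiated cultures, with a line per experiment and a black bar at each group mean. Smad1, Id3 and Id4 slope upward in each experiment, Grem1 slopes downward by a similar amount in each, and Id1 goes down in experiment 2 and up in experiment 3.

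Among the BMP transducers, Smad1 was higher in all 3 experiments. Its brightest probe set, 1459843_s_at, read 9.36, 8.74 and 8.64 in controls and 9.90, 9.30 and 9.55 in irradiated cultures. The control of experiment 1 stood above 1 irradiated culture, that of experiment 2, so the groups overlapped although each irradiated culture was above its own control. The differences were 0.54, 0.56 and 0.91, a mean of 0.67 ± 0.21 (SD, n = 3) or 1.59-fold. The suffix of this probe set marks probes that may match more than 1 transcript. The other Smad1 probe sets do not carry it, and they were higher by 0.53 ± 0.19 (SD, n = 3) for 1448208_at and 0.44 ± 0.19 (SD, n = 3) for 1416081_at.

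Smad5, a close relative of Smad1 with the same role, differed by less. Its expressed probe set read 8.07, 7.99 and 7.83 in controls and 8.27, 8.13 and 8.17 in irradiated cultures, a mean difference of 0.23 ± 0.10 (SD, n = 3). Here every irradiated culture lay above every control. Both other Smad5 probe sets were dim, under or near 6 on each array, and differed by 0.16 ± 0.04 (SD, n = 3) and -0.11 ± 0.35 (SD, n = 3). Smad9, the third of these transducers, read 3.99, 4.08 and 4.19 in controls and 4.03, 4.29 and 3.74 in irradiated cultures. Those values lie near the bottom of the scale and go both ways, so they bear little on its level.

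By their brightest probe sets, the Id genes, all bright on these arrays, were made up of a pair that was higher in every experiment and a pair that was not. Id4 read 9.23, 8.62 and 8.49 in controls and 9.64, 9.10 and 9.10 in irradiated cultures by its brightest probe set, 1450928_at. The difference was much the same in each experiment, 0.41, 0.48 and 0.61, while the controls spanned 0.74, so the groups overlapped. The mean was 0.50 ± 0.10 (SD, n = 3), or 1.41-fold. A second probe set, 1423259_at, gave 0.48, 0.56 and 0.46, and the third and dimmest, 1423260_at, a mean of 0.17 ± 0.15 (SD, n = 3). All 3 were higher in each experiment.

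Id3 read 11.24, 11.06 and 10.76 in controls and 11.57, 11.24 and 11.34 in irradiated cultures. Its differences of 0.33, 0.18 and 0.58 had a mean of 0.36 ± 0.20 (SD, n = 3), or 1.29-fold, and the groups overlapped by a shared value of 11.24. Experiment 3 again gave the widest difference.

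Id1, the most used reporter of BMP activity among the Id genes, had no common direction. It read 10.00, 10.25 and 9.68 in controls and 10.08, 9.76 and 10.28 in irradiated cultures. The differences were 0.08, -0.49 and 0.60, so experiments 2 and 3 opposed each other by amounts about as large as the mean Id4 difference. That opposition rests on the pairing by experiment. In deviations from the group mean over expressed probe sets, the irradiated culture of experiment 2 correlated best with the control of experiment 3. The mean of 0.06 ± 0.55 (SD, n = 3) turned to -0.20 without experiment 3.

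Id2 was read by 3 probe sets that differed among themselves. The brightest, 1435176_a_at, read 12.07, 12.29 and 12.28 in controls and 12.04, 12.27 and 12.66 in irradiated cultures, so its mean difference of 0.11 ± 0.23 (SD, n = 3) came from experiment 3 alone. The next, 1422537_a_at, read 11.56, 11.71 and 11.60 in controls and 11.72, 11.88 and 12.15 in irradiated cultures, with no overlap and a mean of 0.29 ± 0.22 (SD, n = 3). The third and dimmest differed by 0.14, -0.64 and 0.62, the same order of experiments as Id1. Id2 was thus higher in experiment 3 by each of its probe sets and had no common sign in experiment 1 or in experiment 2.

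**Figure D3:**
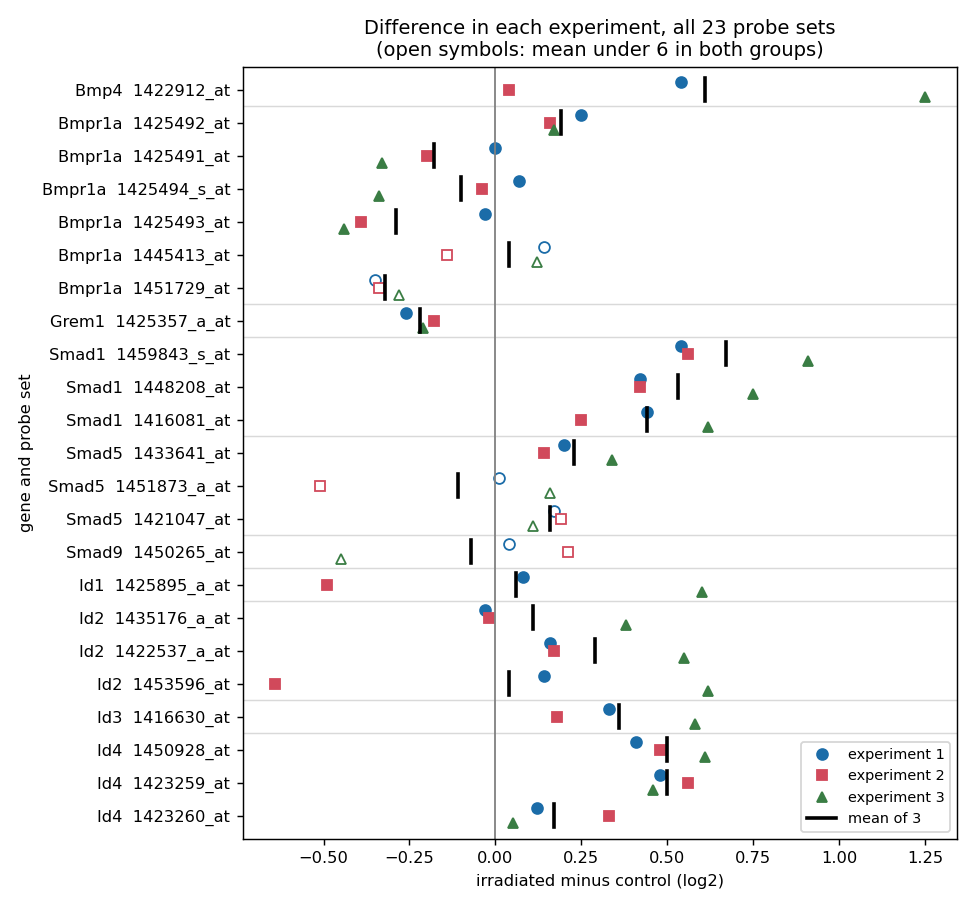
Irradiated minus control difference (log2, x axis) in each experiment for all 23 probe sets (y axis), with a bar at the mean of 3 and open symbols for dim probe sets. The 3 probe sets each of Smad1 and of Id4 lie right of 0 in every experiment, those of Bmpr1a lie on both sides, and Bmp4 ranges from 0.04 to 1.25.

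Counted over probe sets, 11 of the 18 expressed ones were higher in all 3 experiments and 2 were lower in all 3. Over all 16431 expressed probe sets on the arrays the shares were 17.9% and 19%. Every irradiated culture lay above every control for 2 of the 18, the Smad5 and Id2 probe sets named above, against 4.89% of all expressed probe sets. Since the genes were chosen with this contrast known, nothing is read from these counts. By gene, 6 of 10 were higher throughout (Bmp4, Bmpr1a by its brightest probe set, Smad1, Smad5, Id3 and Id4), and Grem1 alone was lower throughout. Of the 9302 expressed genes 18.6% were higher and 18.7% lower throughout.

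The experiments did not contribute evenly. The median difference over the 10 genes was 0.225 in experiment 1, 0.15 in experiment 2 and 0.48 in experiment 3, where the median over 9302 expressed genes was 0.01, 0.00 and 0.00. Experiment 3 gave the widest difference for 8 of the 10 genes, and for 45.8% of all expressed genes. Differences over all expressed genes were also widest there, with an SD of 0.318 against 0.205 and 0.227.

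For these 10 genes, levels in the controls differed between experiments by more than most of the irradiated minus control differences. The mean difference exceeded the range of the 3 controls for 1 of the 10 genes, Bmpr1a by its brightest probe set. The share over all expressed genes was not computed, so this count says nothing particular to the pathway. The control of experiment 1 was the highest of the 3 for 7 of the 10 genes, and that of experiment 3 the lowest for 7, against 44.6% and 42.1% of expressed genes. Macrophage markers ran the other way, with the lowest control sum in experiment 1 and the highest in experiment 3. Whether the make-up of the cultures set these control levels was not tested.

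The rest of the pathway was read from 6 lists of 65 genes in all, of which 60 were measured and 37 expressed. None of the 37 passed limma at an adjusted p under 0.05. Without adjustment 3 were higher at p under 0.05, Acvr2a, Fst and Msx1, and 1 was lower, Bambi, where 4.57% of all expressed genes were higher and 6.28% lower by that rule. Msx1 counted as expressed only through its irradiated mean of 6.03, against 5.79 in controls, so its place in this count is no support. The 4 genes are 10.8% of 37, a share near that background. Their count was 0 without experiment 1, and 2 without experiment 2 or experiment 3. The median difference of the 37 was 0.05.

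Of the other ligand genes, 9 were measured and 2 were expressed. Bmp5 read 7.25, 6.95 and 7.35 in controls and 7.44, 7.24 and 7.39 in irradiated cultures, higher by 0.17 ± 0.10 (SE). Its other expressed probe set differed by 0.17 ± 0.15 (SE), with a lower value in experiment 3. That probe set counted as expressed only through its irradiated mean of 6.13, against 5.96 in controls, so it is no support. Bmp2 differed by -0.02, -0.42 and 0.46, the same order of experiments as Id1. Among the receptors 5 of 10 measured genes were expressed. Acvr2a, a type II receptor for activins and BMPs, read 8.41, 8.05 and 7.84 in controls and 8.74, 8.24 and 8.67 in irradiated cultures, higher by 0.45 ± 0.14 (SE, limma adjusted p = 0.566). Its second expressed probe set differed by 0.07 ± 0.11 (SE). The type II receptor gene Bmpr2 differed by 0.13 ± 0.10 (SE), and its dim probe sets by -0.44 ± 0.13 (SE) and 0.04 ± 0.16 (SE). The type I receptor gene Acvr1 differed by -0.05 ± 0.11 (SE), with 0.06 ± 0.12 (SE) for its other expressed probe set. The co-receptor gene Rgmb differed by -0.26 ± 0.12 (SE), but its other expressed probe set by 0.02 ± 0.09 (SE).

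Secreted or membrane antagonists had 8 expressed genes of 14 measured, 4 of them higher in all 3 experiments and 2 lower, where 18.6% and 18.7% of all expressed genes were. Fst, which encodes follistatin, a protein that traps activins and some BMPs, read 10.98, 10.54 and 10.35 in controls and 11.22, 10.67 and 10.90 in irradiated cultures. It was higher by 0.31 ± 0.12 (SE, limma adjusted p = 0.597), and its other expressed probe set by 0.40 ± 0.12 (SE). Bambi, a decoy receptor without a kinase domain that is itself a BMP and TGF-beta target, read 8.02, 7.89 and 8.11 in controls and 7.85, 7.68 and 7.60 in irradiated cultures. Every irradiated culture lay below every control, by a mean of 0.30 ± 0.11 (SE, limma adjusted p = 0.590). Twsg1 and Chrdl1, which bind BMPs outside the cell, differed by 0.18 ± 0.10 (SE) and 0.19 ± 0.12 (SE). The dim probe sets of Twsg1 differed by 0.03 ± 0.13 (SE), 0.07 ± 0.11 (SE) and -0.74 ± 0.15 (SE), the last lower in each experiment. The other expressed probe sets of Chrdl1 were higher in all 3 experiments, by 0.22 ± 0.10 (SE) and 0.32 ± 0.10 (SE).

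All 12 genes of the list of Smads and Smad regulators were expressed, and none reached p under 0.05 without adjustment. The inhibitory Smad gene Smad7 differed by 0.24 ± 0.11 (SE), and its other expressed probe set by 0.10 ± 0.11 (SE), with a lower value in experiment 2. Smad3, a transducer of TGF-beta and activin, differed by 0.16 ± 0.10 (SE). The corepressor gene Ski read 9.27, 9.29 and 9.31 in controls and 9.11, 9.03 and 9.05 in irradiated cultures, lower by a narrow margin in each experiment, but its other expressed probe set was higher by 0.11 ± 0.10 (SE). Ppm1a, which encodes a phosphatase of Smads, differed by 1.92, 0.02 and -0.02 in the 3 experiments. That first value rests on a single control reading of 9.0 where the other 5 arrays read 10.86 to 10.92, and its 4 other expressed probe sets differed by -0.02 to 0.05.

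Further BMP target genes had 4 expressed members of 9 measured. Msx1, a homeobox gene, read 5.79, 5.70 and 5.89 in controls and 5.95, 5.90 and 6.24 in irradiated cultures, close to the level called expressed. It was higher by 0.24 ± 0.10 (SE, limma adjusted p = 0.619), and only its irradiated mean, 6.03 against 5.79, reached that level. Its other probe set, which was dim, differed by -0.05 ± 0.09 (SE). The bone enzyme gene Alpl differed by -0.01 ± 0.11 (SE), the homeobox gene Dlx5 by -0.04 ± 0.10 (SE) and the transcription factor gene Atoh8 by 0.01 ± 0.10 (SE). Of these 4 targets 1, Msx1, was higher in all 3 experiments, against 18.6% of all expressed genes, and nothing is read from that count.

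All 6 genes on the list of E-proteins and other basic helix-loop-helix partners were expressed. Tcf12, an E-protein gene, differed by -0.12 ± 0.09 (SE), and its other expressed probe sets by -0.21 ± 0.10 (SE) and -0.12 ± 0.10 (SE). Its dim probe sets went the other way, by 0.28 ± 0.10 (SE) and 0.10 ± 0.11 (SE). Twist1 differed by 0.18 ± 0.10 (SE) and Twist2 by -0.15 ± 0.09 (SE). Hes1, a repressor gene of the Notch pathway that BMPs can also induce, read 6.38, 6.18 and 5.66 in controls and 5.73, 5.64 and 5.75 in irradiated cultures. It was lower in experiments 1 and 2 and higher in experiment 3, with a mean of -0.37 ± 0.16 (SE, limma adjusted p = 0.622). Only its control mean, 6.07 against 5.71, reached the level called expressed.

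**Figure D4:**
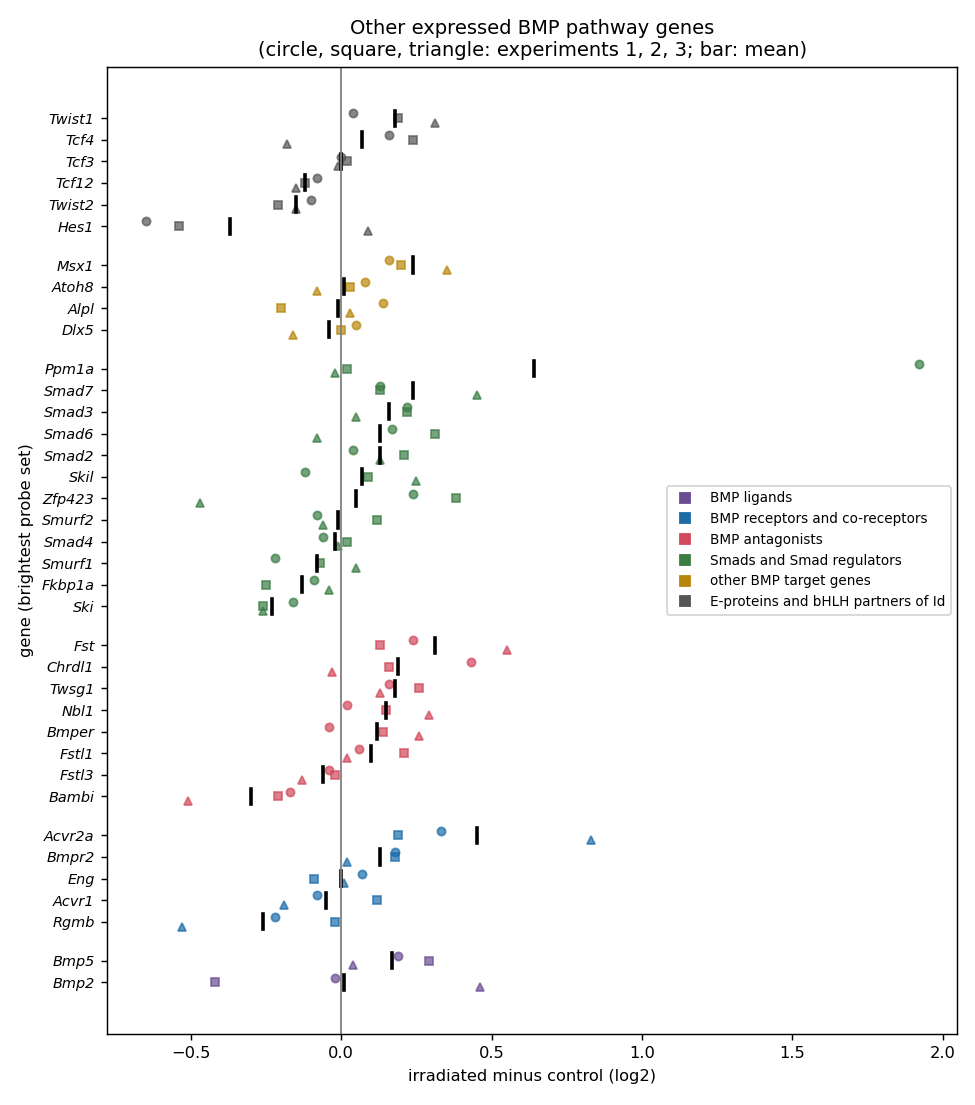
Irradiated minus control difference (log2, x axis) in each experiment for the 37 other expressed BMP pathway genes (y axis), coloured by role, with a bar at the mean. Means lie on both sides of 0 in every list except that of the ligands, which has 2 expressed genes. The Ppm1a mean rests on experiment 1, at 1.92.

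The genes whose level followed Smad1, Id1 and Grem1 most closely over the 6 arrays were looked up among 9088 expressed genes. For Smad1 these were Cmtm4, Osmr, Prorsd1 and Med6, with a Pearson correlation of 0.995 to 0.991. Osmr, the receptor chain for oncostatin M, was higher by 0.23, 0.25 and 0.31 in the 3 experiments and Med6, a Mediator subunit gene, by 0.29, 0.29 and 0.53. For Id1 they were Zfp644, Asb8, Vcpkmt and Zcchc10, at 0.979 to 0.973, and each of these was lower in experiment 2 and higher in experiment 3. For Grem1 they were Dhrs4, Lap3, Kdm5b and Slc37a3, at 0.995 to 0.989, each of them lower in all 3 experiments by 0.01 to 0.20. All these genes were picked by their correlation over the same arrays, so the shared directions largely follow from the choice. The 6 arrays come in 3 pairs that share an experiment, and the correlations describe only these arrays.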

How the data were processed

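RNA from 3 irradiated and 3 control cultures, 200 ng each, was hybridised to Affymetrix mouse arrays. The authors deposited RMA values, which are on the log2 scale, and the submitters' processing notes name RMA, affy and limma without versions. RMA gives log2 values that compress low signals, so differences of dim probe sets are understated.

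The 64 array control probe sets were left out, which leaves 45037. Symbols came from the platform annotation, which gives 34945 probe sets 1 symbol. The members and all gene lists were chosen with earlier results of these data known. limma 3.58.1 (R 4.3.3) was fitted to every probe set with the experiment as a block, two-sided, with Benjamini-Hochberg adjustment, since the design text compares each irradiated culture with its own control. An SE comes from this fit and an SD from the 3 differences. Deviations from group means correlated at 0.769, 0.0973 and 0.363 within experiments 1, 2 and 3, so the pairing rests on the design text. The irradiated culture of experiment 2 correlated best with the control of experiment 3, and the other irradiated cultures with their own control. Differences of opposite sign in experiments 2 and 3, as for Id1 and Bmp2, depend on this pairing. So do the common direction and narrow spread of the Grem1 differences. In simulated data of 45037 probe sets the fit recovered 68 of 100 set to change 2-fold and 99 of 100 set to change 4-fold, and made 8 false calls. The noise was normal and independent between probe sets, with variances drawn from the fitted prior. The simulation therefore checks the fit and does not give its power on these arrays.

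Every probe set of the members is described. From each other list the up to 4 expressed genes with the largest moderated statistic were named, with 1 probe set per gene, and 4 genes by correlation for each of Smad1, Id1 and Grem1, clone names and gene models left out. Listed genes with no probe set annotated to their symbol alone, such as Runx2, are not analysed here. Alternatives were the model for the experiment, each experiment left out, other scalings, dim probe sets left out, another prior, array weights and the median over a gene's probe sets. Figures were drawn with matplotlib 3.10.9.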

Additional observations from a re-analysis of the deposited data

Results flagged for a closer look

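The hybridisation controls, which enter no comparison, differed in experiment 3. The mean of 14 probe sets was 11.14 with irradiation and 10.58 without, a log2 difference of 0.561, while the other experiments gave 0.0807 and -0.0643. The cause was not tested.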

How the results depend on the processing

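Across the alternatives, each of which was listed beforehand, no probe set passed adjustment except with a random replicate block, where 2 did, Gem and Rhpn2, neither of them among the 10 genes. The count at an unadjusted p under 0.05 was 3631 of 45037 in the main fit. Over the same probe sets it was 2168 with no replicate block and 1692 to 3748 with 1 experiment left out. With the intensity trend and robust prior it was 3921, and with array weights 4824. With dim probe sets left out it was 2260, but of only 16431 expressed probe sets, so it is not a smaller share. For the other pathway genes that count was 0 to 2 with 1 experiment left out, 5 with array weights or with dim probe sets left out and 6 with the robust prior, against 4, and none passed adjustment under any alternative. Smad1, Smad5, Id3, Id4, Bmp4 and Grem1 kept their direction under all 9 alternatives run for each. Most of these could not have turned it. Each gene had the same sign in every experiment, so leaving 1 out keeps the sign. The models for the experiment and leaving out dim probe sets return the same mean, so nothing is read from this. With 1 experiment left out the mean difference ran from -0.20 to 0.34 for Id1, from -0.03 to 0.18 for Id2 and from -0.20 to 0.12 for Smad9, and in each the sign turned without experiment 3. Bmpr1a was -0.14 as the median over its probe sets. In all, 4 of 98 recomputed differences changed sign, a total that includes the settings that could not change it. The cause was not tested. With 3 pairs the signal over background limits what dim probe sets, such as that of Smad9, can show.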

Other observations

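The Ppm1a reading of 9.0 in the control of experiment 1 stands alone in the table. Of 45037 probe sets it was the single one in which 1 array lay more than 1.5 from the rest while the other 5 lay within 0.2 of each other. The row directly above it in the deposited table, another probe set, also reads 9.0 on that array. The cause was not tested. This search was made after the values had been seen.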
